A study of Mus musculus with 3 samples.

Results

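Transcripts of 10 genes for neutrophil granule contents and acute-phase proteins were followed in tumours grown in bone: Elane, Mpo, Prtn3, Ctsg, Camp, Ltf, Ngp, Lcn2, Saa3 and Wfdc21. They were taken by gene symbol, and each of the 10 symbols named 1 of the 55357 genes in the deposited matrices. LLC1 cells, a mouse Lewis lung carcinoma line, had been injected into the right tibia of 8-week-old mice (1000000 cells per mouse), and tumours were collected after 14 days. The hosts were wild-type mice (WT), DMP1-Cre Mfn2-/- mice and DMP1-Cre Rhot1-/- mice. Mfn2 encodes mitofusin 2, which fuses mitochondria, and Rhot1 encodes Miro1, which couples mitochondria to transport motors. Tumours of 3 mice were mixed in equal parts into 1 droplet-based 3′ single-cell library per genotype, so no value below has a replicate and no test between genotypes was possible.

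Dmp1-driven Cre acts mainly in osteocytes and osteoblast-lineage cells of bone, so neither the injected cells nor the infiltrating blood cells were the intended site of deletion. The labels name no Cre for the wild-type mice, so carrying Cre and lacking the gene cannot be told apart. No cluster was osteocyte-like, Dmp1 itself had 3 to 9 UMIs (unique transcript molecules) per library, and Mfn2 and Rhot1 over all kept cells were no lower in the library of their own knockout, at 20.3 and 25.2 UMIs per 1000000 UMIs (CPM), than in the WT library, at 16.2 and 23.1 CPM. The libraries held 9393 to 10016 barcodes and 112088653 to 118223251 UMIs, with median depths of 9927 to 12024 UMIs per barcode. After filtering, 9022 WT, 9570 Mfn2 and 9135 Rhot1 cells were kept. In all, 76 barcode sequences occurred in 2 or more libraries, 1 of them in a cell of the granule-rich cluster described below. Both knockout comparisons share the WT library. Bounds in parentheses are 95% intervals. They cover counting error alone, and leave out variation between mice and the clumping of UMIs in single cells.

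Neutrophils build their granules in waves while they mature in bone marrow. Promyelocytes make the contents of primary (azurophil) granules: Elane encodes neutrophil elastase, Prtn3 proteinase 3, Ctsg cathepsin G, all serine proteases, and Mpo encodes myeloperoxidase. Myelocytes and metamyelocytes then make the specific granule proteins: Camp encodes the cathelicidin precursor, Ltf the iron binder lactoferrin, Ngp neutrophilic granule protein and Lcn2 lipocalin 2, which binds bacterial siderophores. Lcn2 and Saa3, a serum amyloid A apolipoprotein made largely outside the liver in mice, are also induced during the acute-phase response. Wfdc21 encodes a small whey acidic protein (WAP) domain protein. Mature neutrophils carry the granule proteins but have largely stopped transcribing the primary and specific granule genes.

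Promoters are shown for members of each group, so that sequence can be set beside the cells in which the genes were found. RefSeq promoter entries on GRCm38.p6 were found for 9 of the 10 members. Wfdc21 had none in the table used. Each window holds the 250 bases before the RefSeq start, and 3 short motifs, chosen after the sequences had been seen, were searched on both strands: AGGAAGT for the Ets family and PU.1, AACGG for Myb, and TTGCNNAA for C/EBP. None of the motifs overlapped another in the windows printed. Capitals mark their matches, read 5′ to 3′ on the gene's strand.
Elane, chr10:79886062-79886311, plus strand: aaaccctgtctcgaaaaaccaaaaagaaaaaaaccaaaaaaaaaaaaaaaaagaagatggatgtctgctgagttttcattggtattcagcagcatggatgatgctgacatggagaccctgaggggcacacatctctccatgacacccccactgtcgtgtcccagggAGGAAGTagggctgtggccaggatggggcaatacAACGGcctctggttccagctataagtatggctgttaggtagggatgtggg
Prtn3, chr10:79879417-79879666, plus strand: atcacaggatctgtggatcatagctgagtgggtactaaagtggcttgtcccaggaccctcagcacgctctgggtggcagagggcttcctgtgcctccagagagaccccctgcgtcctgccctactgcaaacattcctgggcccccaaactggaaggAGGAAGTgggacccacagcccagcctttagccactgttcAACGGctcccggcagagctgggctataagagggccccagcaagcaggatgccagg
Ltf, chr9:111019042-111019291, plus strand: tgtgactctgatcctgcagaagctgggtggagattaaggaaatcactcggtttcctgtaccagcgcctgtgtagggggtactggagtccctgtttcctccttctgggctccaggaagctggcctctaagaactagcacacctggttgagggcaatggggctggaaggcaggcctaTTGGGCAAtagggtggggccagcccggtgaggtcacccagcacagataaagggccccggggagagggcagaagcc
Ngp, chr9:110419558-110419807, plus strand: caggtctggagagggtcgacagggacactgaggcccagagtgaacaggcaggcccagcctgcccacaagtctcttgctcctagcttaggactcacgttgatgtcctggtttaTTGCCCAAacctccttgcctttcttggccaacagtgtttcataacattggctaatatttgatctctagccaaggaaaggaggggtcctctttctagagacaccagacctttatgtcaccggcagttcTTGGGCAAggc
Lcn2, chr2:32387740-32387989, minus strand: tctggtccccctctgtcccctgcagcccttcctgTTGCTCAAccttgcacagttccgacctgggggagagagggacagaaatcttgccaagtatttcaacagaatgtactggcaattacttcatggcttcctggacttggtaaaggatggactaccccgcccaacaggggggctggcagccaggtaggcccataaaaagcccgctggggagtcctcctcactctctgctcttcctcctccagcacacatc
Saa3, chr7:46715677-46715926, minus strand: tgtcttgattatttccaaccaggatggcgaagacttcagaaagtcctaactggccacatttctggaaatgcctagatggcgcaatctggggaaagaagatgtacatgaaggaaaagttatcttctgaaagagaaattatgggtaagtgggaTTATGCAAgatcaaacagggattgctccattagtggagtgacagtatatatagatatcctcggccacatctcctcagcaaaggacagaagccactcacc

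AGGAAGT lay in the windows of Elane, Mpo, Prtn3 and Ctsg, from position -84 to -223 relative to the start, and in 0 of the other 5 members. Among 27025 genes, 7.80% had a match in a window of that length. In Elane and Prtn3, which are neighbours on chromosome 10, an AACGG match also stood closer to the start, at -50 and -55. That motif occurred in 14.8% of genes. TTGCNNAA occurred in Ltf (-75), Ngp (-138 and -11), Lcn2 (-216) and Saa3 (-99), against 9.55% of genes, and in none of the 4 primary granule genes. Camp had no match to any of the 3 motifs. These letters describe the windows and do not show binding.

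Clusters were formed without the 10 genes and without related granule and acute-phase genes. They were named from markers other than the 10. Those for neutrophil precursors include the left-out granule genes Ms4a3, Fcnb, Prss57, Cd177, Mmp8 and Itgb2l. The granule-rich cluster was thus not named independently of granule genes. Neutrophil-like cells made up 7.77%, 9.55% and 5.18% of kept cells in the WT, Mfn2 and Rhot1 libraries, in 2 clusters. The larger, called the mature neutrophil cluster here, held 674, 902 and 455 cells at median depths of 1129, 1061 and 1259 UMIs and had markers such as Cxcr2 (523 CPM), the receptor for neutrophil-attracting chemokines, and Csf3r (638 CPM), the granulocyte colony-stimulating factor receptor. A granule-rich cluster of 57 cells (27 WT, 12 Mfn2 and 18 Rhot1) was deeper, with medians of 4003, 5843 and 4036 UMIs. Its precursor markers included Fcnb (433 CPM), encoding ficolin B, and Cebpe (364 CPM), encoding the C/EBP factor needed for specific granules. The split depended on the settings. At a clustering resolution of 0.5 the neutrophil-like cells were not divided (2072 cells), nor under a stricter cell filter (1365 cells). The precursor-marked cluster held 53 cells with the left-out genes put back. It held 84 with doublets kept, with the osteoclast genes Ctsk and Acp5 among its leading genes. The other large classes were tumour-like (16086 cells), macrophage-like (4445), monocyte-like (1782), erythroid-like (693) and T cell-like (565) cells.

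The 10 genes spread over cells in very different ways. A total of 833 Elane UMIs lay in 108 cells, and 3 WT cells held 78.4% of them. Ctsg was the rarest by cells, with 135 UMIs in 24 cells, and Mpo had 204 UMIs in 73 cells. Camp (8359 UMIs), Ltf (2185) and Ngp (9184) had 87.2%, 81.7% and 83.8% of their UMIs in the 57 cells of the granule-rich cluster, which is 0.206% of all kept cells. Lcn2 (13920 UMIs) and Wfdc21 (7362) were found mainly in the mature neutrophil cluster, with 48.5% and 58.5% of UMIs there. For Saa3 the macrophage-like cells took 64.3% of 4963 UMIs. Prtn3 stood apart from the other primary granule genes, since 67.9% of its 5502 UMIs came from tumour-like cells.

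**Figure D1:**
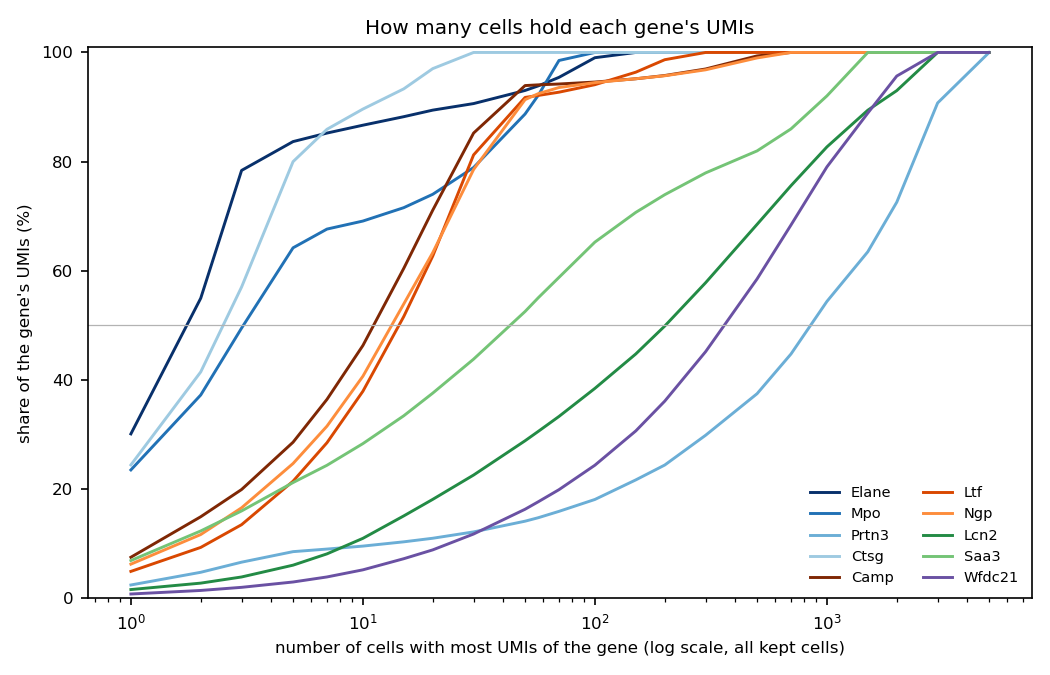
The horizontal axis gives the number of cells with most UMIs of a gene (log scale, kept cells of all 3 libraries) and the vertical axis the percentage of that gene's UMIs they hold. The curve of Elane reaches 78.4% at 3 cells and those of Camp, Ltf and Ngp 94.1%, 92.1% and 92.5% at 57 cells, while the 844 highest cells hold only 50% of Prtn3.

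**Figure D2:**
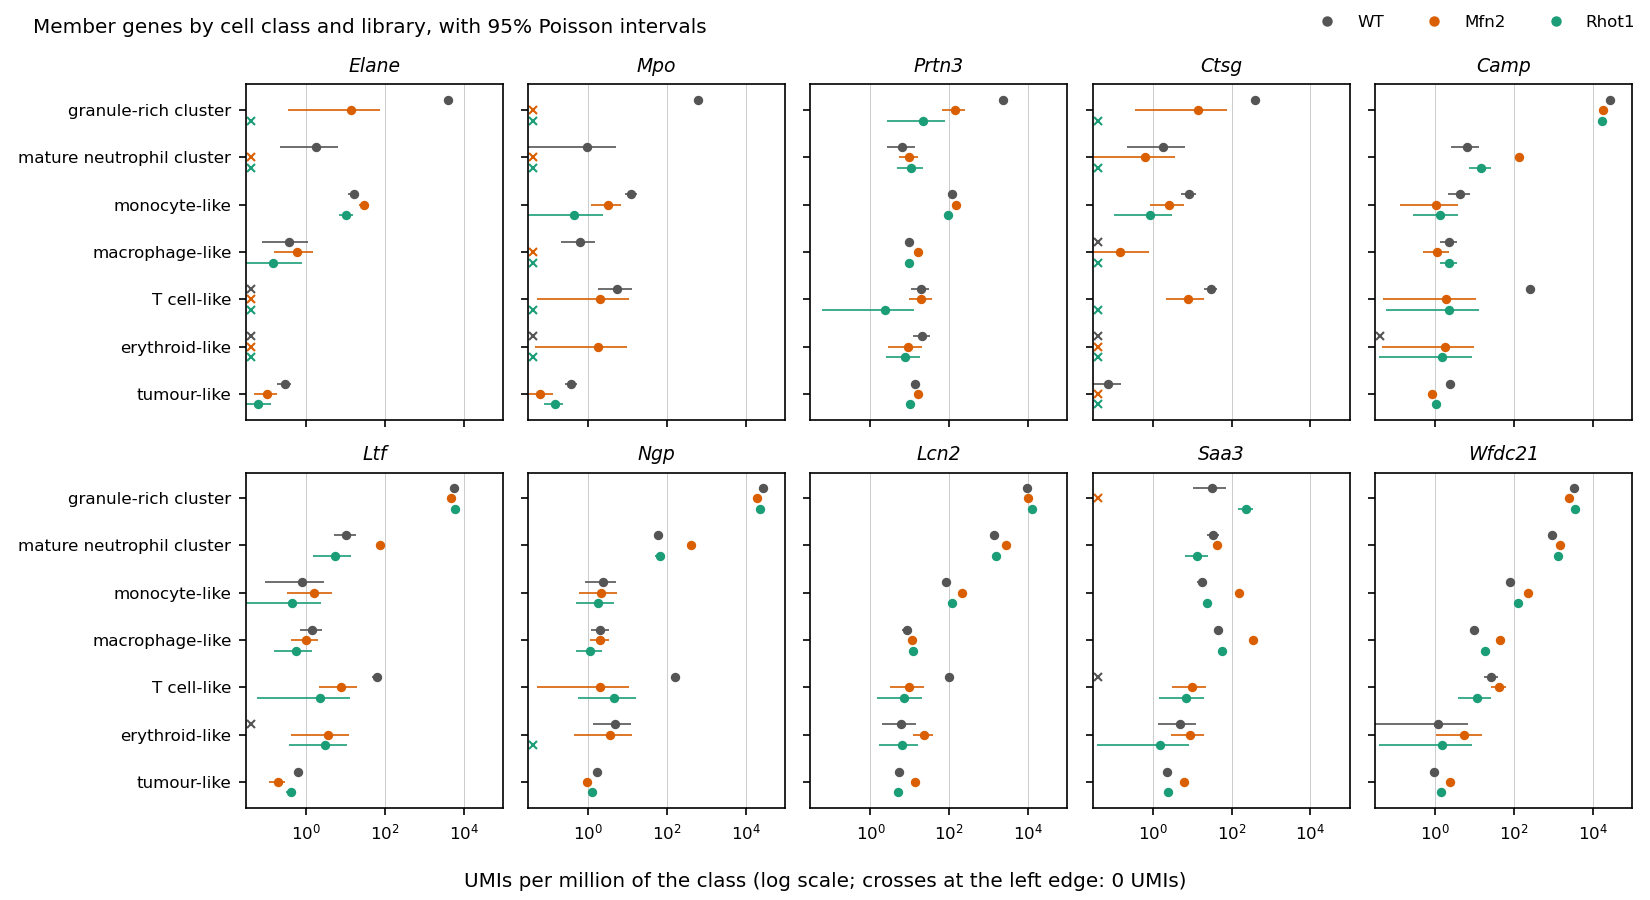
Level of each gene in CPM of the class (log scale) in the granule-rich and mature neutrophil clusters and 5 other classes, with 1 point per library and 95% Poisson intervals. Crosses at the left edge mark 0 UMIs. Camp, Ltf and Ngp are highest in the granule-rich cluster in all 3 libraries, whereas Elane, Mpo and Ctsg stand high there only in the WT library.

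High counts of all 4 primary granule genes were found in 3 cells, all of the WT library. These cells had 251, 207 and 195 Elane UMIs, 135, 128 and 102 Prtn3 UMIs, 48, 25 and 24 Mpo UMIs, and 18, 33 and 13 Ctsg UMIs, at total depths of 10898, 7899 and 9806. All 3 also had Camp (270, 145 and 289 UMIs) and some Ngp (40, 18 and 111), but Ltf, Mmp8 and Retnlg were at 0 in each. They carried Cebpe (5 to 7 UMIs), Fcnb (5 to 23) and Ms4a3 (10 to 28), a membrane protein of granulocyte progenitors. UMIs of the cell-cycle genes Mki67, Top2a or Cdk1 were present in 3 of 3. Since the cells were singled out by their Elane counts after those had been seen, their Elane level is a description.

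Outside these cells the primary granule genes were scarce in neutrophil-like cells. The cluster values that follow include the 3 WT cells, which held all WT UMIs of Elane (653), Mpo (97) and Ctsg (64) there. Prtn3 was in 5 WT cells of the cluster, with 8 and 1 UMIs in those outside the 3. The calls of Elane, Mpo and Ctsg within the cluster therefore rest on those 3 cells. Elane in the granule-rich cluster was at 4137 CPM in WT (3826 to 4467), 13.9 in Mfn2 (1 UMI) and 0 in Rhot1, where 3 counts would give 32.9 CPM. Prtn3 was at 2370, 139 and 21.9 CPM, Mpo at 615, 0 and 0, and Ctsg at 405, 13.9 and 0. WT was highest for each of the 4 genes. By the 2-fold rule given with the specific granule genes, these were the 4 members lower in both comparisons within the cluster, against 7.82% of 8730 genes in Mfn2 and 10.8% of 8779 in Rhot1. Mpo in both comparisons, and Elane and Ctsg in Rhot1, reached 10 CPM only in WT, so those calls could only be lower. None of the members was higher in Mfn2 (32.8%), and Saa3 alone was higher in Rhot1 (17.4%), on the UMIs of 1 cell. Over all neutrophil-like cells, Elane was at least 146-fold lower in the Rhot1 library, set at a floor of 3 counts in that library, and Mpo at least 42.6-fold and 21.9-fold lower in the Mfn2 and Rhot1 libraries. The 4 primary granule genes summed to 965, 17.3 and 12.0 CPM, a ratio of 0.0179 (0.0118 to 0.0260) for Mfn2 and 0.0124 (0.00595 to 0.0229) for Rhot1. Without the 3 WT cells the log2 ratios of the sum, on the log2(CPM + 5) scale, went from -5.45 to -0.0020 and from -5.83 to -0.39, so both differences rested on those 3 cells.

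A further set of cells with primary granule transcripts lay outside the neutrophil-like class. In all, 12 cells had 5 or more UMIs of Elane, Mpo and Ctsg together: the 3 WT cells, 6 monocyte-like cells and 3 T cell-like cells, of which 7 were WT, 4 Mfn2 and 1 Rhot1. The highest of the monocyte-like cells was from WT, with 20 Elane, 28 Mpo, 67 Prtn3 and 21 Ctsg UMIs, 5 Ms4a3 UMIs and none of Camp, Ltf or Ngp. The next, from Mfn2, had 24 Elane, 6 Mpo, 39 Prtn3 and 3 Ctsg UMIs. Of the 12, 9 had no Camp, Ltf or Ngp UMI. One T cell-like WT cell had 23 Ctsg UMIs beside 123 of Cpa3, mast cell carboxypeptidase, and none of Elane, Mpo or Prtn3. In monocyte-like cells as a class, Elane was at 16.6 CPM in WT (12.0 to 22.4), 29.1 in Mfn2 (22.0 to 37.9) and 10.5 in Rhot1 (6.71 to 15.6). Mpo was at 12.4, 3.18 and 0.436 CPM, with 28 of the 32 WT UMIs in 1 cell, and its ratios of 0.257 and 0.0353 were the only 2-fold differences among the primary granule genes at 10 CPM or more in that class.

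Prtn3 was detected far more widely than its partners. Tumour-like cells had 13.3 CPM of Prtn3 in WT (12.5 to 14.1), 16.01 in Mfn2 (15.2 to 16.8) and 10.4 in Rhot1 (9.73 to 11.002), and 17.7%, 19.1% and 13.2% of them had at least 1 UMI. Elane in the same cells was at 0.287, 0.100 and 0.0601 CPM. Per Elane UMI there were 93.5 Prtn3 UMIs in tumour-like, 31.8 in macrophage-like and 6.40 in monocyte-like cells, against 0.590 in the granule-rich cluster. In the granule-rich cluster, 653 of the 654 Elane UMIs were from WT, all in the 3 cells high in Elane, so 0.590 describes mainly those cells. The mature neutrophil cluster had 15 (30 Prtn3 and 2 Elane UMIs). These ratios are pooled over the 3 libraries, and the part of free RNA in them was not tested. Prtn3 ran from 7.22 to 30.1 CPM over the 9 tumour-like clusters, while Elane was at or under 0.510 CPM in each. Monocyte-like cells had 114, 147 and 90.3 CPM of Prtn3 and a UMI in 18.99%, 27.1% and 21.5% of cells (median depths 3571, 3475 and 3846). In T cell-like cells the share was 2.33%, 3.77% and 0.629% at depths of 2094.5, 2572 and 2248. Prtn3 spans chr10:79874476-79883174 on the plus strand in GENCODE M21, and 159 bases at its start overlap Plppr3 on the minus strand. Plppr3, a lipid phosphatase-related membrane protein, had 39 to 45 UMIs per library and at most 0.251 CPM in any tumour-like cluster. The RefSeq start used for the promoter lies inside that span. With the counting setting for strand and introns not given in the sources used here, which Prtn3 transcript gave the tumour-cell UMIs was not tested.

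Specific granule genes defined a second, larger set. Of the 57 granule-rich cells, 45 had a UMI of Camp, Ltf or Ngp: 24 in WT, 6 in Mfn2 and 15 in Rhot1. That is 0.266% (0.171 to 0.396), 0.0627% (0.0230 to 0.136) and 0.164% (0.0919 to 0.271) of kept cells, and 3.42%, 0.656% and 3.17% of neutrophil-like cells. The share was lowest in Mfn2 against both denominators. The WT and Rhot1 intervals overlap, and over kept cells those of Mfn2 and Rhot1 overlap too. The Mfn2 count depends on the clustering: among all kept cells, 23 in WT, 10 in Mfn2 and 18 in Rhot1 had 20 or more UMIs of Camp, Ltf and Ngp together, and 4 of those Mfn2 cells lay in the mature neutrophil cluster. Levels within these cells overlapped between libraries. Median Camp was 126.5, 220.5 and 84 UMIs per cell, median Ltf 39.5, 47.5 and 32, median Ngp 140.5, 228.5 and 123, and median Lcn2 37.5, 121 and 69. Ranges were wide, for example 1 to 630 Camp UMIs per WT cell, 136 to 323 per Mfn2 cell and 0 to 344 per Rhot1 cell.

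Cells of the cluster were split by Mmp8, the neutrophil collagenase gene made late in granule formation, a split chosen after the values had been seen. In 15 cells with Camp, Ltf or Ngp but no Mmp8 (6 WT, 4 Mfn2 and 5 Rhot1), medians were 258 Camp, 59 Ltf, 285 Ngp and 129 Lcn2 UMIs per cell. Cebpe was present in 14 of the 15, and at least 1 cell-cycle UMI in 12. In 27 cells with Mmp8 (15 WT, 2 Mfn2 and 10 Rhot1), medians were 56 Camp, 35 Ltf, 123 Ngp and 43 Lcn2 UMIs, Retnlg, a resistin-like gene of late neutrophils, had a median of 56 UMIs against 3 in the former cells, and 3 of 27 had a cell-cycle UMI. Elane, Mpo, Prtn3 and Ctsg were at 0 in all 27. Median depth was 6240 UMIs in the former and 3354 in the latter. Relative to depth, Camp was at 49256 and 19337 CPM, Ltf at 9410 and 8508, Ngp at 49531 and 27672 and Lcn2 at 18534 and 14010.

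The remaining 12 cells of the cluster (3 WT, 6 Mfn2 and 3 Rhot1) had no Camp, Ltf or Ngp UMI at a median depth of 7511.5. C1qa, a macrophage complement gene, was present in all 12 with a median of 26 UMIs, beside a median of 101.5 UMIs of the neutrophil gene S100a8. Such cells weigh on the cluster's CPM values most in Mfn2, where they were 6 of 12. Macrophage markers in the whole cluster summed to 3592, 13701 and 11698 CPM in WT, Mfn2 and Rhot1. Their part in the differences between libraries was not tested.

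**Figure D3:**
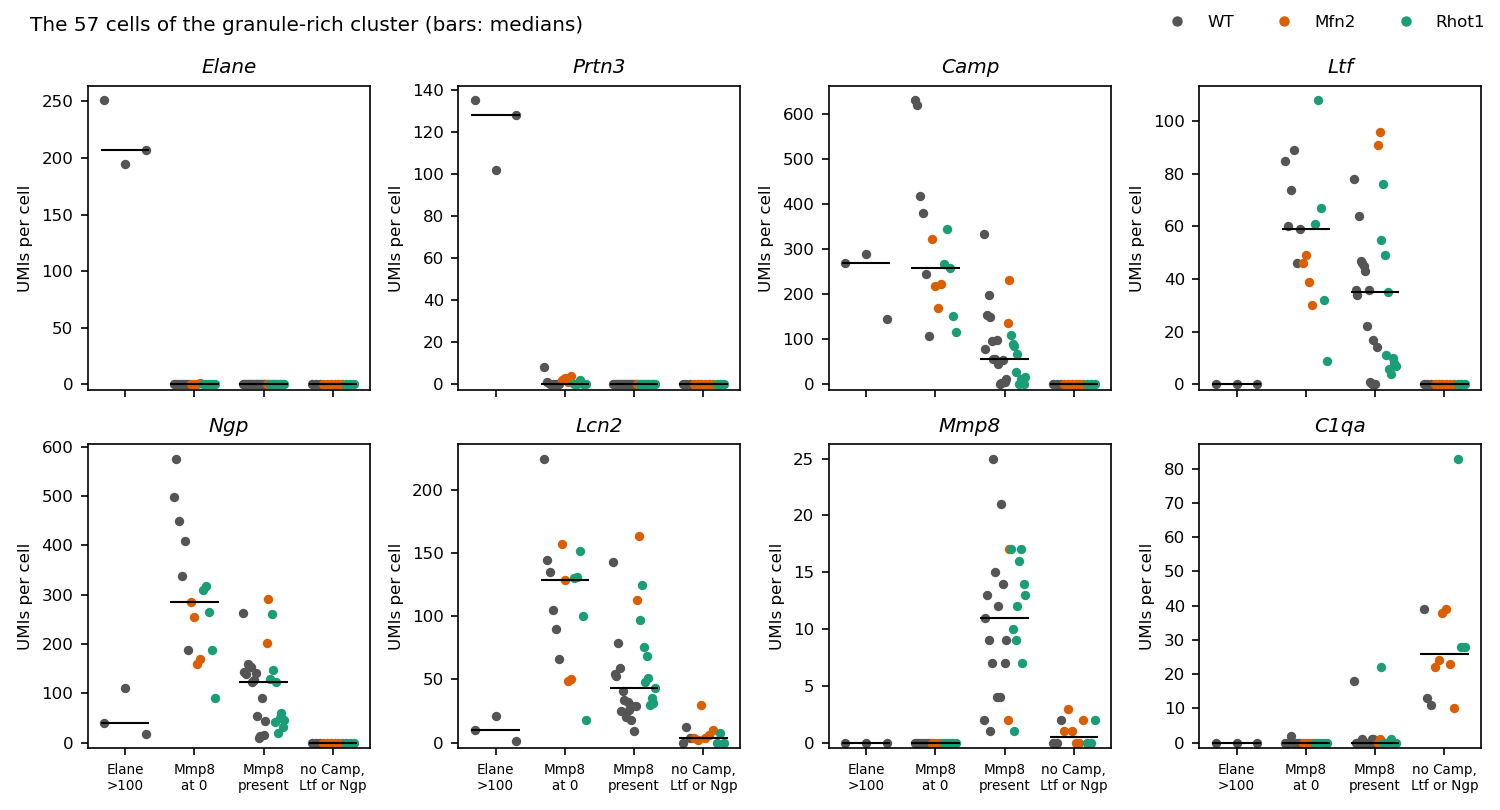
UMIs per cell of 8 genes in the 57 cells of the granule-rich cluster, split into the 4 sets named under the axis and coloured by library, with bars at the medians. Elane and Prtn3 are high in 3 WT cells that lack Ltf, Camp and Ngp are highest where Mmp8 is at 0, and C1qa is found mainly in the 12 cells without Camp, Ltf or Ngp.

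Summed over all neutrophil-like cells, Camp, Ltf and Ngp were lower in the Mfn2 library. Camp was at 3577 CPM in WT, 931 in Mfn2 and 1870 in Rhot1, Ltf at 729, 289.6 and 650.3, and Ngp at 3473, 1223 and 2551. The order WT, Rhot1, Mfn2 held for each of these 3 genes. The Mfn2 ratios to WT were 0.260 for Camp (0.245 to 0.276), 0.397 for Ltf (0.354 to 0.444) and 0.352 for Ngp (0.334 to 0.372). Rhot1 ratios were 0.523 (0.493 to 0.554), 0.891 (0.80 to 0.993) and 0.735 (0.697 to 0.774). Lcn2 went the other way, at 2342, 3020 and 2726 CPM, with ratios of 1.29 (1.23 to 1.35) and 1.16 (1.10 to 1.23). The 4 genes together had a Mfn2 ratio of 0.540 (0.525 to 0.555), a log2 ratio of -0.89 that went to -0.14 with cells thinned to 1000 UMIs and to -0.029 as a mean of per-cell CPM. Thinned or as such a mean, each of the 11 single-member 2-fold calls in neutrophil-like cells, given next, was kept. Of those 11, only 3 were kept without the 10 highest cells of each gene and library, 3 without the 3 WT cells, and 0 in the mature cluster alone. A gene was called at a ratio of 2-fold among genes at 10 CPM or more in 1 of the compared libraries. By that rule 7 of the 10 genes were lower in Mfn2, all the members but Lcn2, Saa3 and Wfdc21, against 3.32% of 8066 genes. In Rhot1 the 4 primary granule genes were lower, against 5.29% of 7908 genes. None of the 10 was higher, against 4.54% and 3.12%. Elane, Mpo and Ctsg reached 10 CPM only in WT in both comparisons, so their calls could only be lower. As a description, the median log2 ratio of the 10, on the log2(CPM + 5) scale, was -1.72 in Mfn2 and -0.69 in Rhot1, also with members at 0 set to their bound, beside 0.082 and -0.033 over all genes at that level. Over all kept cells, where 6 members reached 10 CPM for Mfn2, Saa3 was higher (0.212% of 8477 genes) and Camp and Ngp lower (0.637%). For Rhot1, 0 of 5 were higher (0.105% of 8548 genes), and Camp and Ngp were again lower (0.351%). A call's direction was likewise fixed where only 1 compared library reached 10 CPM. That held for the calls of Saa3 over all kept cells, Wfdc21 in macrophage-like, Mpo in monocyte-like and Lcn2 in tumour-like cells.

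The mature neutrophil cluster alone gave the opposite direction for Mfn2. Camp was at 6.45 CPM in WT, 135 in Mfn2 and 14.8 in Rhot1, Ltf at 10.1, 76.7 and 5.39, and Ngp at 59.9, 401 and 67.4. Ratios of Mfn2 to WT were 20.9 for Camp (9.97 to 52.6), 7.57 for Ltf (4.08 to 15.6) and 6.70 for Ngp (5.18 to 8.79). However, 3 Mfn2 cells held 205 of the 209 Camp, 112 of the 119 Ltf and 379 of the 622 Ngp UMIs. Without the 10 highest cells of each gene and library, Camp was at 0 in all 3 libraries and Ltf at 0.934, 0 and 0 CPM. Ngp without them was at 20.7, 87.0 and 9.76 CPM, a Mfn2 ratio of 4.20 (2.66 to 6.92). Camp and Ltf therefore have no direction in the mature cluster that does not rest on those few cells. Rhot1 ratios there were 2.30 for Camp (0.814 to 6.99), 0.532 for Ltf (0.124 to 1.79) and 1.12 for Ngp (0.762 to 1.65). Camp and Ngp were thus also above 1 for Rhot1, against 0.523 and 0.735 over all neutrophil-like cells. Their intervals in the mature cluster include 1.

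Lcn2 and Wfdc21 were detected in 47.8% to 71.3% of cells of the mature neutrophil cluster and were higher in the Mfn2 library across many cells. Lcn2 was at 1333 CPM in WT (1265 to 1403), 2697 in Mfn2 (2616 to 2780) and 1520 in Rhot1 (1432 to 1611), in 48.2%, 69.3% and 49.7% of cells. With each cell thinned to 1000 UMIs, which left out 249, 391 and 117 shallower cells, those shares were 50.6%, 75.7% and 49.7%. Wfdc21 was at 919, 1509 and 1308 CPM, in 47.8%, 71.3% and 60.0% of cells, or 52.5%, 76.7% and 61.2% after thinning. T cell-like cells, which should lack both, had a Lcn2 UMI in 2.00%, 3.77% and 1.89% of cells and a Wfdc21 UMI in 0.667%, 2.83% and 2.52%. Mfn2 ratios were 2.02 for Lcn2 (1.91 to 2.15) and 1.64 for Wfdc21 (1.52 to 1.77). Rhot1 ratios were 1.14 (1.05 to 1.23) and 1.42 (1.30 to 1.56). Leaving out the 10 highest cells of each library gave Mfn2 ratios of 2.03 and 1.74. The 8 neutrophil precursor markers summed to 231, 907 and 379 CPM in the mature cluster of WT, Mfn2 and Rhot1. Of these markers, 4, 2 and 2 were at 0. In WT and Mfn2 nearly all of the sum came from Mmp8 and Cd177, whose levels are given below with other granule genes. The higher sum in Mfn2 is thus mainly that of these genes and not of the precursor markers as a set. The part of the 8 markers in the Lcn2 and Wfdc21 values was not tested. In this cluster 4 of 6 measured members were 2-fold higher in Mfn2, Camp, Ltf, Ngp and Lcn2, against 5.0% of 8117 genes, and 0 were lower, against 3.39%. Camp reached 10 CPM only in the knockout library of either comparison, so it could only be called higher. The Camp and Ltf calls in Mfn2 rest on the few cells given above. For Rhot1, Camp was higher and Saa3 lower of 7 measured, against 4.02% and 5.79% of 7995 genes, on 11 and 10 Rhot1 UMIs.

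**Figure D4:**
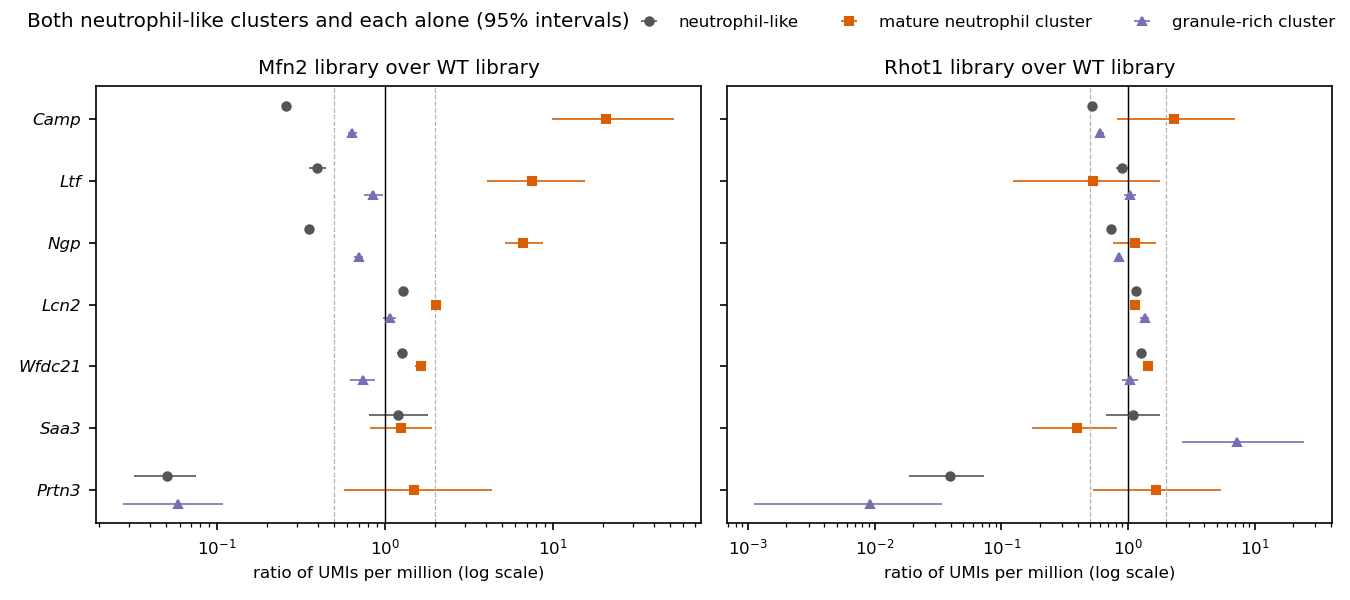
Ratio of the knockout library to the WT library in CPM (log scale) for 7 genes, over both neutrophil-like clusters, the mature neutrophil cluster and the granule-rich cluster, with 95% conditional intervals and dashed lines at 2-fold. For Mfn2, Camp, Ltf and Ngp lie left of 1 over both clusters and right of 1 in the mature cluster, while Lcn2 does not fall below 1 in any of the 3. No point is drawn for Saa3 in the granule-rich cluster of Mfn2, where it was at 0.

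The other lists were read against the same shares of all genes in the mature cluster, 5.0% higher and 3.39% lower in Mfn2 and 4.02% and 5.79% in Rhot1, and none of them holds a member. In the mature neutrophil cluster of Mfn2, 3 of 18 measured other specific and gelatinase granule genes were 2-fold higher and 0 lower, with a median log2 ratio of 0.32 against 0.085 over all genes. The higher ones were Chil3 (4.61 CPM in WT, 114 in Mfn2), a chitinase-like lectin, Mmp8 (181 and 801 CPM) and Cd177 (45.1 and 92.9 CPM), a neutrophil surface protein. Mmp8 and Cd177 are also among the precursor markers summed above, so they are not a separate observation. Rhot1 had 2 of 18 higher, Cybb (13.8 and 40.4 CPM) and Chil3 on 10 UMIs. Of mature neutrophil genes in Mfn2, 0 of 12 were higher and 2 lower, G0s2 (3894 and 1294 CPM), a lipolysis inhibitor, and Cxcr4 (35.9 and 12.9 CPM). Among other acute-phase and IL-6 or IL-1 response genes, 0 of 14 were higher and 5 lower in Mfn2, with a median of -0.24. They include Nfkbiz (716 and 230 CPM), a nuclear IkB protein, and Cp (12.9 and 3.87 CPM), ceruloplasmin. Neither of the latter lists had a member 2-fold higher in the Rhot1 mature cluster.

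Of the neutrophil precursor list, 7 of 12 genes were measured over all neutrophil-like cells. In Mfn2, 0 were higher and 3 lower: Cebpe (63.5 CPM in WT, 15.4 in Mfn2), Ms4a3 (49.1 and 1.85) and Fcnb (78.0 and 10.5), against 3.32% of 8066 genes lower. In Rhot1, Ms4a3 (4.80 CPM) and Fcnb (29.99 CPM) were lower, against 5.29% of 7908 genes. The 3 WT cells high in Elane held 28, 15 and 10 of the 61 WT Ms4a3 UMIs. They also held 18, 5 and 23 of the 97 WT Fcnb UMIs, and 7, 5 and 7 of the 79 of Cebpe. Ms4a3 and Fcnb are also on the list of other primary granule genes, where 4 of 10 were lower in Mfn2 and 3 of 10 in Rhot1, against the same shares of all genes. In the mature cluster alone, 0 of 5 precursor genes and 0 of 7 other primary granule genes were lower in either comparison. All genes had 3.39% lower in Mfn2 and 5.79% in Rhot1, so counts of 0 are near the background. Higher were 1 of 5 precursor genes in each comparison. Of other primary granule genes, 2 of 7 were higher in Mfn2 and 1 of 7 in Rhot1, against 5.0% and 4.02% of all genes. Of 8 genes for receptors of these products, 5 were measured, and none differed by 2-fold in neutrophil-like cells.

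Of the members measured in macrophage-like cells, Saa3 had the largest ratio of Mfn2 to WT, whereas for Rhot1 the ratios of Wfdc21 (1.86) and Lcn2 (1.44) were above that of Saa3. It was at 46.1 CPM in WT (41.5 to 51.1), 349 in Mfn2 (335 to 363) and 58.4 in Rhot1 (52.9 to 64.3). Cells with a UMI were 2.64%, 12.3% and 4.71% at median depths of 4129, 4023 and 4568, or 1.32%, 6.42% and 2.01% thinned to 1000 UMIs. T cell-like cells had a Saa3 UMI in 0 of 300 cells in WT (which allows up to 1.00%), 4.72% in Mfn2 and 1.89% in Rhot1, and erythroid-like cells in 1.46%, 2.50% and 0.348%, so the share in cells that should lack Saa3 was also highest in Mfn2 but below that of its macrophage-like cells. The Mfn2 ratio to WT was 7.56 (6.77 to 8.47), and that of Rhot1 1.27 (1.10 to 1.46). Counts were clumped: 44 of 1493 Mfn2 cells had 10 or more UMIs and held 88.0% of the total, against 10 of 1593 WT cells with 75.9% and 13 of 1359 Rhot1 cells with 73.5%. One Mfn2 cell had 344. Without the 10 highest cells per library, Saa3 was at 11.2, 157 and 20.7 CPM, a Mfn2 ratio of 14.0 (11.2 to 17.6). That step removed every WT cell with 10 or more UMIs but only 10 of the 44 in Mfn2. The rise from 7.56 is thus no sign of a larger difference.

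The higher Saa3 level of Mfn2 was present in each of the 5 macrophage-like clusters. In cluster 14 (599 cells, led by Ccl8, Ccl12 and C1qa) it was at 159, 931 and 109 CPM in WT, Mfn2 and Rhot1. In cluster 10 it was at 13.8, 545 and 23.9 CPM, in the interferon-response cluster 19 at 58.5, 749 and 53.5, and in cluster 3, with Arg1 and Hmox1 but also the platelet genes Ppbp and Pf4 in its lead, at 27.2, 127 and 44.8. Cluster 16, at a median of 1002 UMIs, had 0, 23.4 and 17.6 CPM. Its total UMIs were only 376728, 812956 and 624416, so these values rest on few counts. Mfn2 was the highest library in all 5, though little above Rhot1 in cluster 16, and the order of WT and Rhot1 varied. Wfdc21 in macrophage-like cells was at 9.72, 43.4 and 18.04 CPM, with ratios of 4.47 (3.47 to 5.82) for Mfn2 and 1.86 (1.39 to 2.50) for Rhot1, while Lcn2 stayed within 8.21 to 11.8 CPM. Of 4 members measured there, 2 were 2-fold higher in Mfn2, against 0.825% of 8122 genes, and 0 lower (0.382%). In Rhot1, 0 of 3 were higher or lower (0.442% and 0.307% of 8146 genes). The 11 neutrophil markers summed to 952, 1084 and 794 CPM in these macrophage-like cells, none of them at 0. They include S100a8 and S100a9, and their part in the Wfdc21 values was not tested.

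Monocyte-like cells had Saa3, Lcn2 and Wfdc21 higher in the Mfn2 library. Saa3 was at 18.1, 153 and 24.4 CPM in WT, Mfn2 and Rhot1, in 3.19%, 14.0% and 4.20% of cells. Lcn2 was at 82.6, 209.9 and 119 CPM, and Wfdc21 at 78.0, 232 and 125. The Mfn2 ratios were 8.41 (6.16 to 11.7), 2.54 (2.15 to 3.01) and 2.97 (2.51 to 3.53), and those of Rhot1 1.35, 1.44 and 1.60. Without the 10 highest cells per library the Mfn2 ratios were 14.5, 2.48 and 3.81. Those cells held 74.5% of the Saa3 UMIs in WT and 56.25% in Mfn2, so the rise for Saa3 is no sign of a larger difference. Of 6 measured members, 3 were higher (1.27% of 7815 genes) and 1, Mpo, lower (1.39%) in Mfn2. In Rhot1, 0 were higher (0.742% of 7816 genes) and Mpo was lower (0.601%). Neutrophil markers moved with these values: the 11 summed to 1888, 3994 and 2423 CPM in monocyte-like cells, and S100a9, a calprotectin subunit, was at 305 CPM in WT and 1047 in Mfn2. Saa3 was at 34.1, 42.6 and 13.5 CPM in the mature neutrophil cluster of WT, Mfn2 and Rhot1, above its monocyte-like level in WT and below it in Mfn2 and Rhot1. The part of neutrophil RNA in the values of these 3 genes was not tested.

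**Figure D5:**
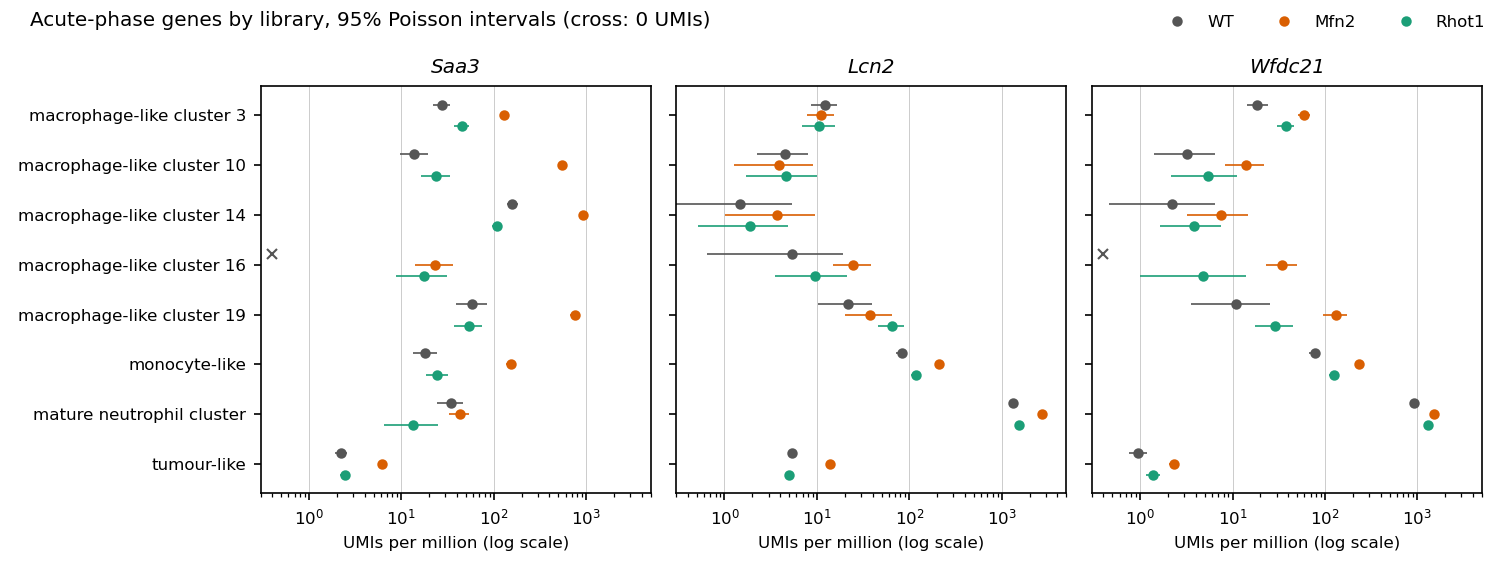
Saa3, Lcn2 and Wfdc21 in CPM (log scale) by library in the 5 macrophage-like clusters, monocyte-like cells, the mature neutrophil cluster and tumour-like cells, with 95% Poisson intervals and a cross for 0 UMIs. The Mfn2 points of Saa3 lie right of the others in every macrophage-like cluster and in monocyte-like cells (153 against 18.1 and 24.4 CPM).

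Tumour-like cells had low levels of the acute-phase members, again highest in Mfn2. Lcn2 was at 5.33, 13.8 and 5.0 CPM, with 6.00%, 10.2% and 4.76% of cells positive at median depths of 17141, 15493 and 16387, and up to 70 UMIs in 1 Mfn2 cell. Its Mfn2 ratio was 2.58 (2.32 to 2.88). Lcn2 was the only one of 2 measured members that was 2-fold higher there (0.207% of 8224 genes), and 0 were lower (0.268%). In Rhot1, 0 of 1 measured were higher (0.0725% of 8273 genes) or lower (0.121%). Saa3 was at 2.25, 6.14 and 2.49 CPM and Wfdc21 at 0.957, 2.35 and 1.39, below the 10 CPM minimum. Camp was at 2.43, 0.854 and 1.08 CPM, with at most 2 UMIs in any tumour-like cell. Neutrophil markers in tumour-like cells summed to 122, 170 and 107 CPM. Their part in the Lcn2 difference was not tested.

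Of the other acute-phase and IL-6 or IL-1 response genes, none of 12 measured in macrophage-like cells and none of 11 in monocyte-like cells was 2-fold higher in Mfn2. Over all genes 0.825% and 1.27% were higher, so a count of 0 is near the background. In both classes 2 were lower, against 0.382% and 1.39% of all genes, among them Il1b, the interleukin 1 beta gene, at 547 CPM in WT and 250 in Mfn2 macrophage-like cells. The list's median log2 ratio was -0.041 in macrophage-like and -0.12 in monocyte-like cells of Mfn2, against 0.035 and 0.028 over all genes. Among other specific and gelatinase granule genes, Mmp8 (61.7 and 173 CPM) and Lrg1 (11.1 and 26.3 CPM), a secreted leucine-rich glycoprotein, were 2-fold higher in Mfn2 macrophage-like cells, of 14 measured, against the 0.825% given above. Fpr1, the formyl peptide receptor 1 gene, was at 20.5, 43.2 and 42.9 CPM in the WT, Mfn2 and Rhot1 macrophage-like cells.

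Likeness to each group was measured as Pearson's r of log2(CPM + 5) with the group's mean over 21 profiles (7 classes in 3 libraries), among 5204 genes at 50 CPM or more in some profile. Profiles of a library share its depth and free RNA, so r is a description. The primary granule group was matched best by Fcnb (0.76), the elongation factor gene Ell2 (0.74) and the kinase gene Braf (0.73). For the specific granule group these were Retnlg (0.96), Hdc (0.95), histidine decarboxylase, and Ly6g (0.95), a neutrophil surface antigen. Both neutrophil-like clusters are pooled in these profiles. Between them, the granule-rich to mature ratio was 0.825 for Retnlg, 0.398 for Hdc and 2.26 for Ly6g. It was 338 for Camp, 140 for Ltf, 110 for Ngp and 5.18 for Lcn2. The acute-phase group, which shares Lcn2 with the specific group, was matched best by Lrg1 (0.98), Csf3r (0.96) and Fpr1 (0.95).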

How the data were processed

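Droplet-based 3′ single-cell RNA was measured in 3 libraries. The authors deposited raw UMI counts. Per the file headers these came from Cell Ranger 7.0.0, and mm10 is named in the submitters' processing notes. Annotation and intron handling: not given in the sources used. Barcodes needed at least 300 genes and no more than 15% mitochondrial UMIs, and Scrublet doublets (273, 298 and 224), called with scanpy 1.11.5, were removed. Counts were log-normalised to 10000. The 2000 variable genes, without the members and related genes (66 in all), were ranked by dispersion. From them 30 components were computed with scikit-learn 1.9.0, and 27 clusters were formed with leidenalg 0.10.2 at resolution 1. Markers came from a fixed list, but the naming rule was written after the data were seen, and 3 clusters stayed unnamed. Members and lists were chosen with earlier results of these data known.

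UMIs were summed per class and library as CPM. CPM have exact Poisson intervals, shares exact Clopper-Pearson intervals and ratios exact conditional intervals. Log2 ratios used a pseudocount of 5 CPM. A 0 was set at 3 counts for calls. The members were always named, with, from each list, up to the 2 highest and 2 lowest ratios in a class, all precursor genes, and the 3 genes most like each group. A gene outside that rule was chosen after its values were seen. The ratio step was tested on simulated Poisson counts, which hold no clumping of UMIs in single cells and so do not test its effect. No sample was left out, and alternatives are given in the closing section. GENCODE M21 gave gene coordinates. Depth, at 112088653 to 118223251 UMIs per library, limits genes with few UMIs.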

Additional observations from a re-analysis of the deposited data

Results flagged for a closer look

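Barcodes removed as doublets, which enter only the alternative with doublets kept, also held acute-phase transcripts, above the WT level in Mfn2 for Lcn2, Saa3 and Wfdc21 and in Rhot1 for Saa3 and Wfdc21. Lcn2 was at 62.7 CPM in the 298 removed Mfn2 barcodes, 34.8 CPM in the 273 of WT and 32.1 CPM in the 224 of Rhot1. Saa3 was at 63.1 CPM in Mfn2 and 20.5 in Rhot1, against 12.6 in WT. In each library 1 barcode held a large part of these UMIs, with 155 of 315 in Mfn2, 49 of 85 in Rhot1 and 44 of 65 in WT. Wfdc21 was at 55.5 CPM in Mfn2 and 28.3 in Rhot1, against 15.3 in WT. These values stand outside the kept cells and were not tested.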

How the results depend on the processing

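No paired analysis was possible because each genotype has 1 library. For the same reason none was left out. Values are log2 ratios on the log2(CPM + 5) scale, and the cause of each move was not tested. Using the mature cluster alone and leaving out the 3 WT cells were alternatives chosen after seeing the data.

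The primary granule sum in neutrophil-like cells (Mfn2 -5.45, Rhot1 -5.83) went to -0.39 and -1.12 without the top 10 cells, -4.62 and -4.53 thinned to 1000 UMIs, -3.86 and -4.05 as a mean of per-cell CPM, -0.068 and -0.025 in the mature cluster alone, and -0.0020 and -0.39 without the 3 WT cells. For Rhot1 it was -6.65 with members among the variable genes, -7.05 with a stricter cell filter and -6.70 by own-library clusters, formed in 1 library at a time.

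The specific granule sum for Mfn2 (-0.89) was -0.70 with members variable, -0.67 with the stricter filter, -0.47 with doublets kept, -0.83 at resolution 0.5, -1.64 by own-library clusters, -0.50 without the top 10 cells, -0.14 thinned, -0.029 per cell, -0.96 with median-ratio scaling, 1.23 in the mature cluster and -0.81 without the 3 WT cells. For Rhot1 (-0.38) it was -0.49 with the stricter filter, -0.17 with doublets, -0.83 without the top 10 cells, -0.31 thinned, -0.11 per cell, 0.19 in the mature cluster and -0.30 without the 3 WT cells.

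The acute-phase sum in macrophage-like cells for Mfn2 (2.57) was 2.04 with the stricter filter, 2.02 at resolution 0.5, 2.80 by own-library clusters and 2.30 thinned. For Rhot1 (0.43) it was -0.056, 0.088, 0.12 and 0.68 under the same settings and 0.70 per cell. The Mfn2 ratios of Saa3 and Wfdc21 stayed 2-fold higher under all settings tried for that class.

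Among the 11 single-member 2-fold calls in neutrophil-like cells, some turned in direction. Prtn3 for Mfn2 was 0.31 without the top 10 cells, 0.36 in the mature cluster and 0.17 without the 3 WT cells, and 0.46 for Rhot1 in the mature cluster. There, Camp was 3.61, Ltf 2.43 and Ngp 2.65 for Mfn2. Outside those calls, Camp (0.79), Ngp (0.16) and Saa3 (-1.08) for Rhot1 also changed sign in the mature cluster.

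Of all primary granule UMIs, 18.5% lay in neutrophil-like cells: 17.5% with doublets, 13.2% without the top cell, 0.261% without the top 10, 22.0% thinned, 21.6% per cell and 0.539% in the mature cluster. For specific granule UMIs (83.1%) these were 80.6%, 84.8%, 74.3%, 91.6%, 92.5% and 23.3%, with 83.9% for members variable, 78.8% for the stricter filter, 79.2% at resolution 0.5 and 80.7% by own-library clusters. For acute-phase UMIs (59.3%) they were 55.3%, 60.9%, 62.9%, 81.3%, 84.7% and 42.6%, with 54.4%, 57.5% and 58.1% for the last 3 settings. Resolution 2 moved none of 40 single-gene ratios beyond its interval.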

Other observations

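A few granule-rich transcriptomes sat in classes that should not hold them. One WT T cell-like cell of 10838 UMIs had 223 Camp, 51 Ltf, 140 Ngp and 80 Lcn2 UMIs, and it held nearly all of that class's Camp (227 UMIs in WT). In Rhot1, 1 osteoclast-like cell had 60 Camp, 13 Ltf and 45 Ngp UMIs and 1 cell of an unnamed cluster 71, 32 and 119. Of 51 cells with 20 or more UMIs of Camp, Ltf and Ngp together, 43 were in the granule-rich cluster, and 46 had no UMI of Elane, Mpo or Ctsg.

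Camp, Ltf and Ngp lie within 1195389 bases of each other on chromosome 9, and Prtn3 ends 3072 bases before Elane starts on chromosome 10.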
